A study of Oryza sativa with 8 samples.

Results

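A small set of rice genes had mean levels in drought within a factor of 1.5 of normal and higher mean levels after the plants were watered again. Some members still moved in drought within that factor, as given below. The set holds 108 of the 59903 rows of the count table. Members were selected on the measured wild type levels themselves, scaled as CPM, that is, a count divided by the library total and multiplied by 1000000. A row was taken if its mean CPM in drought lay within a factor of 1.5 of its mean under normal watering, and if its mean in recovery was at least 1.6 times the larger of these and at least 5 CPM. The same libraries chose the members and give the levels below, so the levels describe the set and no test of them is given.

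When soil dries, plants build up abscisic acid, a hormone that acts through bZIP transcription factors such as OsbZIP23 to switch on protective genes, while growth and photosynthesis slow down. Watering brings back turgor, the hormone is broken down and growth starts again. Some genes answer to the return of water itself; in Arabidopsis, proline dehydrogenase, which degrades the proline stored during drought, is a well-known one. A gene that is steady in drought and high afterwards differs from one that only returns from a drought-time fall.

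RNA-seq was done on whole seedlings of the rice variety MH63, raised at 32 °C by day and 29 °C by night with 30 plants in a bucket. All plants grew for 14 days with ample water. Normal plants stayed watered, drought plants then had water withheld for 15 days, which brought relative soil water content to about 5%, and recovery plants were watered for 4 further days after the same drought. Each of these wild type groups had 2 libraries, and 2 further libraries came from drought-treated osbzip23 plants, which carry a disrupted OsbZIP23 gene as far as the label's name shows; with no named rows the disrupted gene could not be checked. Per the labels' protocols the treatment was repeated on a different batch of seedlings, but no label ties a replicate number to a batch, so the spread between replicates may be partly technical. Normal and drought plants were harvested together and recovery plants 4 days later. Later age and rewatering therefore cannot be told apart in any comparison with recovery. In whole seedlings, a change in the number of cells of a type and a change of RNA per cell cannot be told apart either.

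The wild type libraries held 37400784 to 42894245 counts and the osbzip23 libraries 14653876 and 17009931. Over the first 40897 rows (drought replicate 1 of the wild type has no count after these), the wild type libraries correlated with each other at r = 0.906 to 0.998 across rows, on log2(CPM + 1), and within 21 successive windows of up to 2000 rows no wild type pair fell below r = 0.884. The osbzip23 libraries correlated with each other at r = 0.988 but with wild type libraries at -0.0130 to -0.00974. Their rows do not correspond to the wild type rows, so they enter neither the rule nor the main fit, and a fit that includes them is given only as an alternative. In the member rows, 41 of the 108 had 0 counts in both osbzip23 libraries, a fact about rows that is not read as an effect of the genotype. The share over all rows was not computed, so nothing particular to the members is read from it. None of the table's IDs matched the 39387 genes of a RefSeq rice annotation (0 matches), and with 2 row orders in 1 table an ID is a row label only. No gene name, function, protein or promoter is given to a member for that reason, and no organ marker or pathway list could be read.

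The members were rare. Of 13886 rows with a recovery mean of at least 5 CPM, 6283 had a drought mean within the factor of 1.5, and 108 of these (1.72%) met the recovery limit. The median of recovery over the larger of normal and drought was 0.782 across the 6283 rows and 1.84 across the members. In all, 814 rows reached 1.6 times normal in recovery. Drought had lowered 527 of them (64.7%) by the factor of 1.5 or more and raised 158 (19.4%) by as much, while the members made up 13.3%. The remaining 23 rows were within the factor of 1.5 but short of 1.6 times their drought mean. Most rows that stood above normal after rewatering had thus moved in drought as well.

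**Figure D1:**
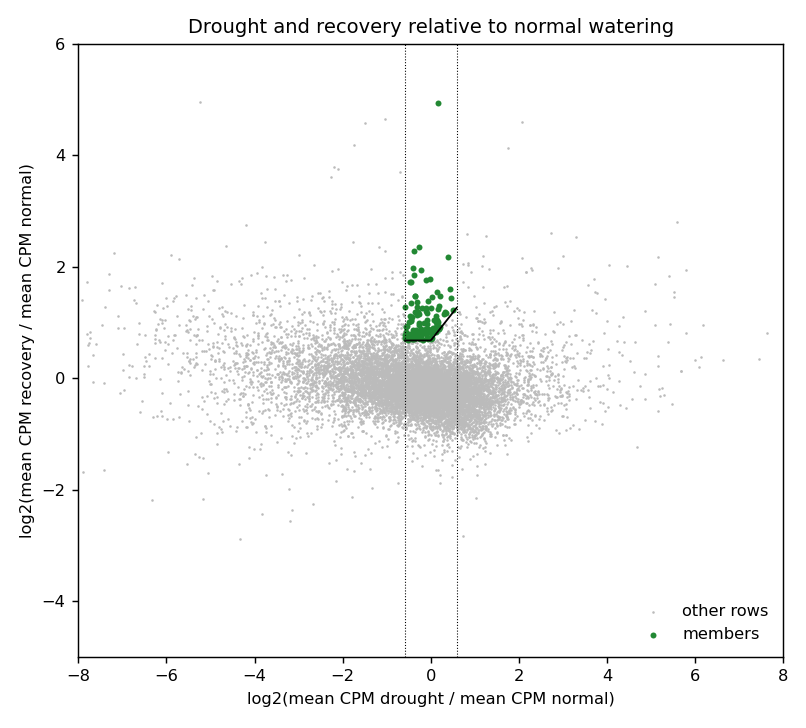
Each point is a row with a recovery mean of at least 5 CPM and counts in normal and drought; the x axis gives log2 of drought over normal mean CPM and the y axis log2 of recovery over normal. The dotted lines mark the factor of 1.5, the solid line the recovery limit and green points the 108 members; most rows between the dotted lines lie below 0, and 41 of 13842 rows fall beyond the axes.

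The mirror pattern was set beside it, with the same band, a recovery mean at least 1.6 times below the smaller of normal and drought, and that smaller mean at least 5 CPM. It held 362 rows, 5.73% of the 6321 rows that could meet it, so that by library-total scaling the steady rows that fell outnumbered those that rose. This order reversed with the scaling. TMM scaling, which sets library factors from the bulk of rows rather than from totals, gave 189 raised and 143 lowered rows, and median-of-ratios factors gave 192 and 123. TMM moved recovery over normal by 0.19 and recovery over drought by 0.11 on the log2 scale relative to totals. All 108 members met the rule under both of these scalings, with 81 and 84 rows added. Both scalings raised recovery relative to normal and drought in every row, so a member could not fall below the recovery limit. That all members were kept is therefore no sign of stability. Whether more steady rows rose or fell depended on the scaling.

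Together the members took up a small part of the counts, which was larger in recovery. Their summed counts were 0.416% and 0.409% of the library in normal replicates 1 and 2. Drought replicates 1 and 2 had 0.363% and 0.373%, and recovery replicates 0.888% and 0.879%. Means were 0.412% ± 0.0050 in normal, 0.368% ± 0.0073 in drought and 0.883% ± 0.0066 in recovery (SD, n = 2 each). Both recovery libraries lay above the other 4, by 2.14 times the normal and 2.40 times the drought mean. The drought libraries were the lowest and did not overlap with normal. In the ranking of all rows by CPM, the median member stood at 10271 in normal, 10721.5 in drought and 6402 in recovery. Among the 1000 rows with the most counts there were 3 members in normal, 2 in drought and 11 in recovery.

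The gain was uneven. Mean CPM of the members ran from 1.53 to 849.2 in normal (median 14.3), from 1.62 to 566.5 in drought (median 12.2) and from 5.25 to 1463 in recovery (median 29.8). Longer transcripts give more counts and gene lengths were not used here, so an order of CPM between rows is an order of counts, not of RNA molecules. The 10 members with the most counts in recovery held 53.1% of the members' summed recovery CPM and 53.3% of their summed gain over the larger of normal and drought. A pair of rows, OsMH_03G0199900 and OsMH_02G0468600, gained 730.6 and 614.2 CPM, 29.9% of the gain of 4499 CPM. Left without that pair, which was chosen after the values were seen, the set held 0.309% ± 0.0057 of the counts in normal, 0.297% ± 0.0062 in drought and 0.645% ± 0.0050 in recovery (SD, n = 2 each), or 2.09 times normal and 2.17 times drought. By the rule each member has a recovery mean of at least 1.6 times the larger of normal and drought. A rise without the pair was therefore fixed in advance, and these values only give its size.

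By library-total scaling, recovery was less than 2 times the larger of normal and drought in most members. This ratio ranged from 1.61 to 27.6, with quartiles at 1.71 and 2.27 and a median of 1.84. With TMM factors the members' median was 2.08, and the values below are by library totals. The ratio was at least 2 in 40 members, at least 2.5 in 18, at least 3 in 11, at least 4 in 3 and at least 10 in 1. At the recovery limit the nearest members had ratios of 1.609, 1.610, 1.622, 1.623 and 1.623, and the nearest rows left out had 1.592, 1.587, 1.584, 1.577 and 1.576. At the limit of 5 CPM the lowest members stood at 5.25, 5.71 and 5.89 CPM and the highest rows left out at 4.89, 4.85 and 4.81. For drought over normal, the members nearest to the lower limit of 0.667 stood at 0.6671, 0.6687 and 0.6699, against 0.6605, 0.6587 and 0.6574 outside. On the upper side the nearest members were at 1.41, 1.38 and 1.35 and the nearest rows outside at 1.67, 1.67 and 1.77. Rows crowded the lower drought limit and the recovery limit, and were sparse near the upper drought limit.

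A rule with a drought ratio cannot admit a row with no counts in both normal and drought. There were 2 such rows with at least 5 CPM in recovery, and 44 rows with at least 5 CPM in recovery that had no count in normal or none in drought. These rows are not members and are not described further.

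**Figure D2:**
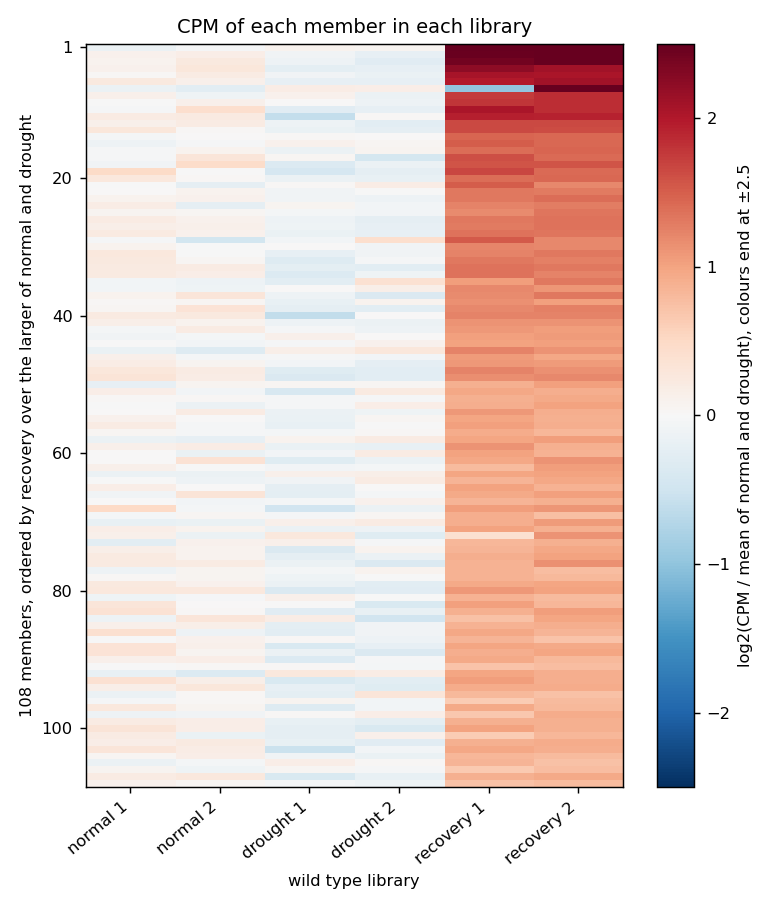
Rows are the 108 members, ordered by recovery over the larger of normal and drought, columns the 6 wild type libraries, and colour gives log2 of CPM over the mean of normal and drought. The normal and drought columns stay pale and the recovery columns are light to dark red in every row but 1, which is blue in recovery replicate 1.

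OsMH_06G0230700 stood far from every other member. It had 2.22 and 2.41 CPM in the normal libraries, 2.590 and 2.588 CPM in drought, and 68.8 and 74.0 CPM in recovery. It was thus barely counted in normal and drought seedlings alike, with 90 to 111 counts per library, and had 2621 and 2897 counts after rewatering. Its recovery mean was 71.4 ± 3.67 CPM against 2.31 ± 0.130 in normal and 2.59 ± 0.0019 in drought (SD, n = 2 each), ratios of 30.9 and 27.6. The edgeR log2 fold change was 5.14 ± 0.10 over normal and 4.90 ± 0.10 over drought (SE). The next ratio among the members was 5.12, so this row lies alone at the top of the range.

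OsMH_05G0177000 had that next ratio. Normal libraries gave it 28.1 and 29.1 CPM, drought libraries 24.4 and 22.8, and recovery libraries 144.8 and 147.8. The drought libraries lay just below normal without overlap, and both recovery libraries far above normal. Its log2 fold change was 2.55 ± 0.06 over normal and 2.75 ± 0.06 over drought (edgeR, SE).

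OsMH_03G0199900 joined a high ratio to a high count. It had 179.4 and 200.1 CPM in normal, 154.7 and 138.4 in drought, and 891.9 and 948.9 in recovery. Recovery was 4.85 times normal and 6.28 times drought, with a log2 fold change of 2.47 ± 0.06 and 2.76 ± 0.06 (edgeR, SE). Of all members it gained the most CPM, 16.2% of the summed gain.

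OsMH_02G0468600, the member with the most counts in each of the 3 conditions, sat at the edge of the rule. The normal libraries held 854.1 and 844.3 CPM, the drought libraries 550.4 and 582.6, and the recovery libraries 1503 and 1424. The drought mean was 0.667 times normal, so this row had a clear drop in drought that stayed just inside the factor of 1.5. The log2 fold change was -0.51 ± 0.05 in drought over normal and 0.98 ± 0.05 in recovery over normal (edgeR, SE). OsMH_06G0475900 had the same shape at a lower count, with 37.5 and 34.0 CPM in normal, 23.3 and 25.0 in drought and 67.2 and 68.4 in recovery. Its drought change was -0.49 ± 0.08 (log2, SE, edgeR), and its recovery mean was 1.90 times normal. In both of these rows the 3 groups did not overlap, which for drought and normal was a condition for naming them.

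A few members climbed in both steps. OsMH_01G0121700 had 279.7 and 252.0 CPM in normal, 383.0 and 365.3 in drought and 633.9 and 602.4 in recovery. OsMH_05G0272400 had 114.9 and 103.6 CPM in normal, 143.0 and 157.6 in drought and 308.2 and 283.2 in recovery. In each row the drought libraries lay above normal and the recovery libraries above both, with no overlap. For drought and normal this was a condition for naming these rows. The log2 fold changes in drought over normal were 0.57 ± 0.06 and 0.54 ± 0.07 (edgeR, SE), the largest positive ones called among members whose log2 CPM averaged 3 or more. Recovery over normal was 2.33 and 2.71 times, respectively.

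**Figure D3:**
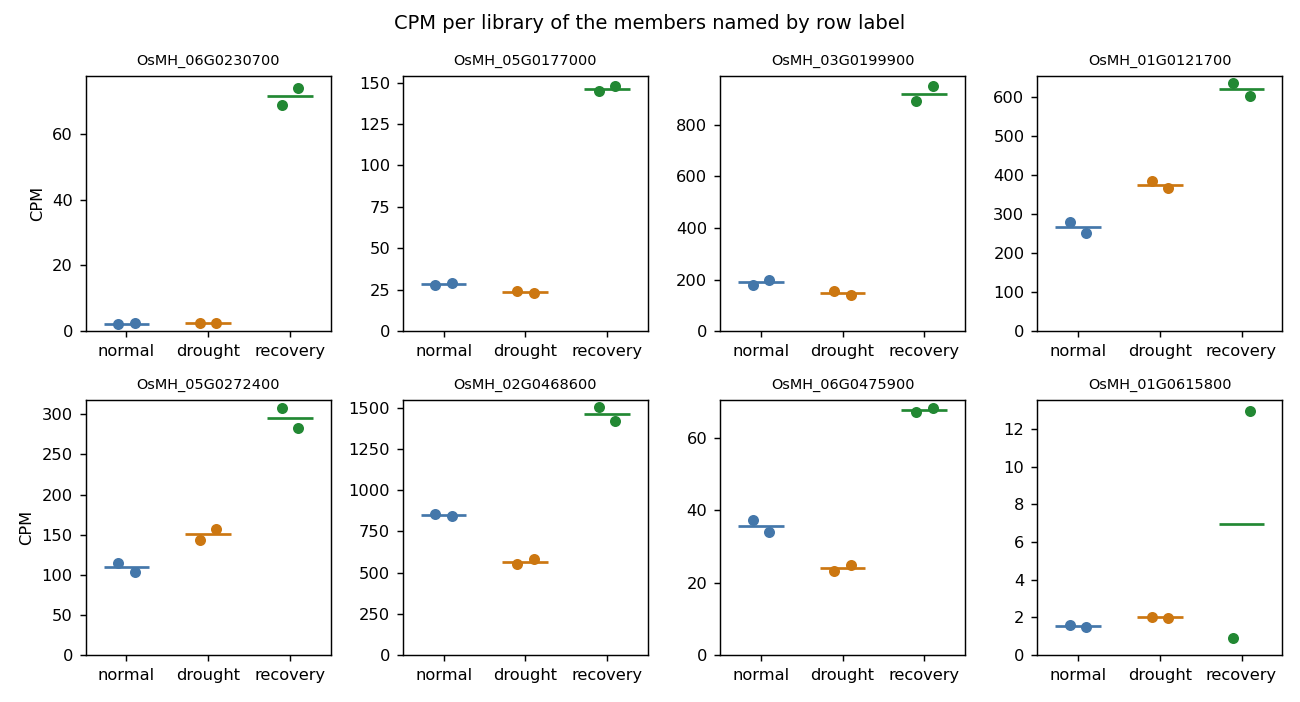
CPM (y axis, from 0) of 8 members in the normal, drought and recovery libraries, with a point per library and a bar at the mean of 2. In 7 of them both recovery points lie above every other point; in OsMH_01G0615800 they lie at 0.893 and 13.0 CPM, on either side of the rest.

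The other rows among the 10 with the most counts in recovery ran from the lowest ratio of the set to above its upper quartile. Ranks 5 to 10 had recovery means of 263.3, 255.5, 243.3, 230.8, 207.2 and 194.8 CPM. Their ratios to the larger of normal and drought were 2.06, 1.72, 2.39, 1.61, 2.25 and 1.63. In each of them both recovery libraries exceeded all 4 others. The row at rank 5 had 126.5 and 129.3 CPM in normal, 109.4 and 132.5 in drought and 275.0 and 251.6 in recovery, so normal and drought overlapped. The row at rank 7 had 100.9 and 102.6 CPM in normal, 89.9 and 87.5 in drought and 237.3 and 249.3 in recovery, and its drought libraries lay below normal.

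"Steady in drought" covered small changes that the replicates could resolve. Of the 108 members, 78 (72.2%) had a lower mean in drought than in normal and 30 a higher one. Of all 6283 rows in the same drought band, 47.1% were lower, and of the mirror rows 16.0%. With TMM scaling the figures were 65.7% of the members and 39.6% of the band. The rule used the normal and drought means together with recovery, so these shares only describe the sets. Both replicates placed drought below normal in 64 members and above it in 15, and in 29 the replicates differed in side. These counts are by library totals, and no such share was computed for the band or with TMM scaling. In the edgeR quasi-likelihood fit of the 6 wild type libraries (Benjamini-Hochberg adjusted p under 0.05 over 22898 rows), 43 members were called between drought and normal, 11 higher and 32 lower. Over all rows tested, 72.7% were called, 35.3% higher and 37.3% lower. The rule used this contrast and keeps large changes out, so nothing is read from the lower share. The called members moved between -0.51 and 0.57 on the log2 scale.

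The levels of these classes were as follows, and the order of the ratios within a called class follows from its drought direction. In the 32 members called lower in drought, the medians were 29.1 CPM in normal, 23.7 in drought and 59.1 in recovery, and recovery was a median of 1.80 times normal and 2.43 times drought. In the 11 called higher, the medians were 37.1, 41.2 and 83.4 CPM, and recovery was 2.25 times normal and 1.82 times drought. The 65 members with no call in drought had fewer counts, with medians of 6.42, 6.002 and 14.9 CPM and ratios of 1.97 and 2.17. Fewer counts give a wider error, so the lack of a call in these rows cannot be taken as equality of drought and normal. The number of calls in drought also depended on the libraries: it was 25 without normal replicate 1, 34 to 40 without any other single wild type library, and 16 in a fit that included the osbzip23 libraries.

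In recovery against normal all 108 members were called higher, where 18.1% of all rows were. In recovery against drought all 108 were called higher as well, where 38.2% of all rows were. Both contrasts chose the members, and the 2 comparisons share the recovery libraries, so these counts only show that no member passed the rule on means while failing the fit. The log2 fold change had a median of 1.15 over normal (range 0.88 to 5.14) and of 1.28 over drought (range 0.81 to 4.90), with a median SE of 0.10 in each. The median over all tested rows was 0.00 over normal and -0.01 over drought. With library-total scaling the members' medians were 0.96 and 1.17, and those of all rows -0.19 and -0.12.

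The rule used group means and not the difference between the replicates of a group, but the 2 are not independent. A single high recovery library can carry a mean over the limit, as in OsMH_01G0615800. The rule also keeps members lower in normal and drought than in recovery. The spreads below therefore only describe the set. On TMM-scaled CPM with 0.5 added, the median absolute log2 ratio of replicate 1 to replicate 2 over the members was 0.117 under normal watering, 0.115 in drought and 0.079 after rewatering. Over the 13886 rows with at least 5 CPM in recovery it was 0.077, 0.094 and 0.075. The members' replicates were thus farther apart than those of these rows as a whole in normal and drought, and about as close in recovery. Members have low counts in normal and drought, with 13 of them under 100 counts in at least 1 library, and the part of counting error in this was not tested. Recovery replicate 1 was the higher one in 58 of 108 members (53.7%), against 53.0% of all these rows, so the set as a whole did not stand higher in a single recovery library.

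**Figure D4:**
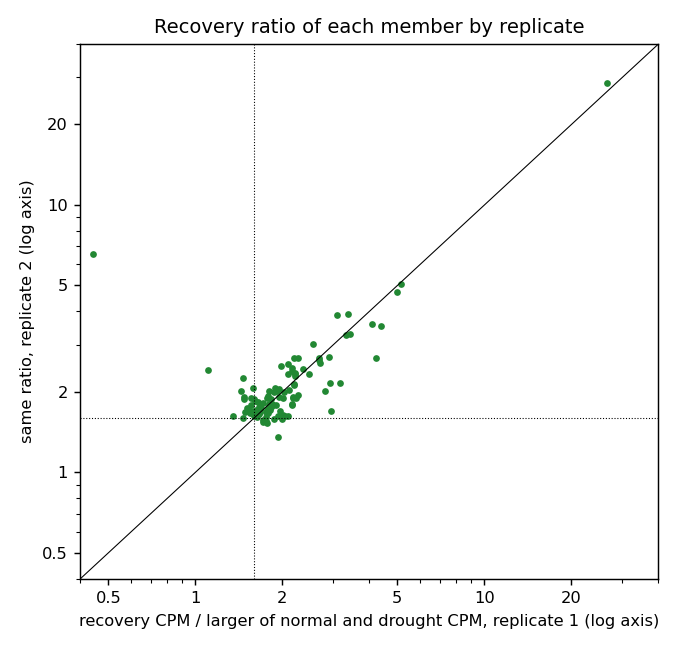
Recovery CPM over the larger of normal and drought CPM in replicate 1 (x) and replicate 2 (y) for the 108 members, both on log axes, with the line of equal values and dotted lines at 1.6. The replicates differ by a median factor of 1.09, the topmost member lies at 26.6 and 28.6, and OsMH_01G0615800 stands apart at 0.443 and 6.54.

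Taken replicate by replicate, recovery exceeded both normal and drought in each replicate in 107 of 108 members. The median ratio was 1.88 in replicate 1 and 1.89 in replicate 2, and 82 members reached 1.6 in both. The lowest recovery library exceeded the highest of the 4 normal and drought libraries in the same 107 members, which held for 2534 of 13886 rows (18.2%) in all. It did so by 1.6 times or more in 70 members. No share over all rows was computed for these 70 or for the 82 above. The rule on means favours both counts, so they are not read as agreement of replicates. Applied to the replicate 1 libraries alone, the rule found 103 rows, whose median ratio was 1.99 in those libraries and 1.83 in replicate 2, where recovery was above both other conditions in 101 of them. From the replicate 2 libraries alone it found 125 rows, with a median ratio of 1.89 there and 1.79 in replicate 1, where recovery was above both in 123. The 67 rows found in each replicate were 65.0% of the first list and 53.6% of the second, and all 67 were members. Another 36 and 58 rows were found in only 1 of the lists. No share over all rows was computed for this single-replicate criterion, and replicate numbers share no stated batch. These counts therefore only describe the lists.

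A few members, singled out after their values were seen, leaned on 1 library. OsMH_01G0615800 had 66 and 55 counts in normal, 84 and 85 in drought, but 34 and 507 in recovery. These are 1.59 and 1.47 CPM, 2.01 and 1.98 CPM, and 0.893 and 13.0 CPM. Recovery replicate 1 was below and replicate 2 above all other libraries. Without recovery replicate 2 its log2 fold change turned from 2.36 to -0.59 over normal and from 1.90 to -1.03 over drought (edgeR). The set's share of the recovery counts was 0.883% ± 0.0075 (SD, n = 2) without it. OsMH_09G0271400 had 4.25 and 3.53 CPM in normal, 4.68 and 3.15 in drought and 5.17 and 8.54 in recovery, so its recovery libraries lay above the rest but far from each other. Without recovery replicate 2 its log2 fold change was 0.60 over normal and 0.53 over drought, and neither was called. Its call over normal was lost without normal replicate 2 as well. OsMH_08G0437800 lost its call over normal without normal replicate 1 or recovery replicate 2, at log2 fold changes of 0.75 and 0.82. No other member lost a recovery call when a single wild type library was left out.

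The members were spread over the whole stretch of the table that holds wild type counts, from row 600 to row 40886. When the 13886 rows with at least 5 CPM in recovery were divided into 10 equal stretches in table order, each held 8 to 18 members. In that order, 8 of 108 members (7.41%) stood directly next to another member, against 1.49% of the non-member rows. These were 4 pairs, which lay 1 to 3 rows apart in the full table. Recovery means in the pairs were 5.25 and 19.9 CPM, 16.1 and 103.0 CPM, 194.8 and 6.92 CPM, and 29.5 and 28.2 CPM. Drought was below normal in both rows of the first 3 pairs, at 0.784 and 0.721, 0.853 and 0.766, and 0.740 and 0.805 times normal. In the last pair it was 0.702 times normal in one row and 1.08 times in the other, so these neighbours lay on either side of normal. As row labels do not name the gene, whether neighbouring rows are neighbouring or overlapping genes, or copies that share reads, was not tested.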

How the data were processed

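Gene expression was measured by RNA-seq in 8 libraries. The deposited table holds whole-number counts per gene ID with no normalization by the authors, 1 column per library, per the file headers. StringTie 2.1.7, STAR 2.7.10a and fastp 0.23.0 appear in the submitters' processing notes, and what each was used for is not stated there. Annotation and genome build, strandedness and the handling of shared reads are not given in the sources used here, so counts of gene copies and overlapping genes are uncertain. Of 59903 rows, 29829 had no wild type count.

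Members were found on library-total CPM. Fold changes come from edgeR 4.0.16 (R 4.3.3; TMM, filterByExpr, quasi-likelihood F-test, Benjamini-Hochberg over 22898 rows, adjusted p under 0.05) fitted to the 6 wild type libraries, with 3 residual degrees of freedom. SE is the log2 fold change over the root of F. All 108 members passed the filter, and the lowest member count in any library was 34. Levels were computed with Python 3.11.15. The fit was also run on simulated counts with the same spread for all rows and changes in recovery only. These data differ from that setting, and nothing is read from the simulation. Members, lists and tests were chosen with earlier results of these data known.

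Rows were named by size: at most 2 that rose and 2 that fell per comparison among called members whose log2 CPM averaged 3 or more and whose groups did not overlap, and, by rank, the 10 with the highest recovery CPM. Alternatives were other scalings, DESeq2 1.42.0, other filters and limits, 4 or 8 libraries, each wild type library left out, and a block for the replicate number. Counting error limits the members with the fewest counts most.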

Additional observations from a re-analysis of the deposited data

How the results depend on the processing

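The number of members followed the settings: 189 with TMM and 192 with median-of-ratios factors, 40 with a recovery limit of 2, 63 with a narrower drought band, 177 with a minimum of 1 CPM, 70 when every library had to meet the limit (added after seeing the data), and 98 to 125 without 1 replicate. Members chosen on TMM-scaled CPM held 0.817% of the counts in normal, 0.684% in drought and 1.51% in recovery. Without the pair with the largest gain, left out after seeing the data, the shares were 0.309%, 0.297% and 0.645%, and with 1 library a group they were 0.409% to 0.416%, 0.363% to 0.373% and 0.879% to 0.888%.

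Members called higher in recovery numbered 105 to 108 over normal and 106 to 108 over drought when a library was left out. Those counts were 79 and 86 at a minimum absolute log2 fold change of 1, where 1050 and 5919 of all 22898 rows were called higher. They were 98 and 106 with all 8 libraries, where 1868 and 7824 of 33074 rows were called higher. Members called in drought fell to 0 at that fold minimum, to 16 with all 8 libraries and to 25 to 40 with a library left out. In either direction and over all rows, the fold minimum gave 1594 calls for recovery over normal, 10476 for recovery over drought and 9273 for drought over normal. Without it there were 7967, 17280 and 16643. With 8 libraries there were 3231, 14901 and 13955 in the same order. Leaving out a library gave 5725 to 8590, 15953 to 17232 and 15248 to 16534 calls. Reversals occurred in OsMH_01G0615800, whose log2 fold change ran from -0.59 to 3.25 over normal and from -1.03 to 2.81 over drought without recovery replicate 2 or 1. The drought change of 2 members with no call in drought also changed sign with the library left out, from -0.52 to 0.14 in OsMH_08G0437800 and from -0.24 to 0.32 in OsMH_09G0271400 (log2). The cause of these changes was not tested.

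Replicate numbers share no stated batch, and deviations of same-numbered libraries correlated across rows at -0.056 (normal and drought), 0.065 (normal and recovery) and -0.032 (drought and recovery). With the replicate block 107 members were called higher over normal, 107 over drought and 39 in drought. OsMH_01G0615800 lost its call in the first 2. Over all 22898 rows the block had 7429, 16923 and 16283 calls in either direction. In the 2 recovery comparisons 3891 and 8558 of these were higher. DESeq2 also called 107 members higher over normal and 107 over drought, where 3941 and 8534 of 22898 rows were called higher. It did not call OsMH_01G0615800, which was among the 10 and 2 members that lost these calls with 8 libraries.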
